A study of Saccharomyces cerevisiae with 9 samples.

Results

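The genes described here encode the proteins of the small (40S) ribosomal subunit of the budding yeast Saccharomyces cerevisiae. They were chosen by name, both paralogs of each protein included, and 46 of the 56 genes listed had a row in each of the 2 tables used, out of 2426 protein-coding genes in all. The 10 listed genes without a row, among them RPS12, RPS18A, RPS20, RPS21A, RPS22B, RPS26A, RPS27A, RPS28A and RPS28B, were not analysed here. The series holds 9 samples, of which 8 are ChIP-exo libraries of RNA polymerase II (Rpb3) or Nrd1 from WT and RTR1 deletion cells. The ninth is a single MNase-Seq library of total histones from wild type cells, and every value below comes from it. Micrococcal nuclease (MNase) cuts linker DNA, and the sequenced fragments are those protected from it, read here as nucleosome signal. The methods describe no step that selects histone-bound DNA, so protection by other bound proteins was not separated. No replicate of this library was used, so no spread between samples and no test can be given, and differences are described over genes only.

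Ribosomal protein genes are among the most actively transcribed genes of growing yeast. Most small-subunit proteins are encoded by a pair of paralogs left by an ancient genome duplication, and their mRNAs make near-identical proteins. A typical yeast gene has a nucleosome-depleted region just upstream of the transcription start site (TSS), a well placed +1 nucleosome at the start, and an array of further nucleosomes through the gene, ending in a looser region around the transcript end site (TES). The activator Rap1 binds the promoters of most ribosomal protein genes, where Fhl1 and Ifh1 are recruited.

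The values are in RPM, read coverage scaled to the size of the library, at 61 points per gene, taken as spaced 25 nt from 500 nt upstream to 1000 nt downstream of the TSS, and at 61 points from 200 nt upstream to 200 nt downstream of the TES. A point is called a bin below. The 500 nt come from the label of the deposited table, while the study's description of its average profiles gives a start nearer the TSS, and all positions relative to the TSS rest on this reading. With a start 200 nt upstream instead, the lowest point of the median profile would lie 145.5 nt downstream of the TSS in RPS genes and 135.1 nt downstream in the other genes. Values at the ends of the windows were whole multiples of 0.03 RPM (9704 of 9704, within 0.01 of a whole number), which corresponds to 33313664 reads, and the mean over all genes and bins, 6.25 RPM, to about 208 reads over a base. A value of 0 therefore allows up to 0.0901 RPM, which covers counting error only.

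The likeness of the paralogs bears on several results below. The 18 pairs with both copies measured include 16 of equal coding length, which were 85.2% to 99.2% identical over the coding sequence, with a median of 95.2%. A stretch of the last exon of RPS6A (YPL090C) and RPS6B (YBR181C), which encode a protein of the subunit body, shows how alike 2 copies can be, and the most different stretch of the last exon of RPS7A (YOR096W) and RPS7B (YNL096C) shows the other end of the range. Bases that differ between the copies are in capitals (R64 assembly, sacCer3, 120 bases each, read 5′ to 3′ along the gene).
RPS6A chrXVI:377391-377510 (- strand): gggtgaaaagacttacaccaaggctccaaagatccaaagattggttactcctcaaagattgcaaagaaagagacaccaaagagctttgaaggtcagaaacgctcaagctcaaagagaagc
RPS6B chrII:591812-591931 (- strand): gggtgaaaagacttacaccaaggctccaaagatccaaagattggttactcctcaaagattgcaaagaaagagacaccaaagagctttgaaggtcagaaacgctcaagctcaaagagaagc
RPS7A chrXV:506341-506460 (+ strand): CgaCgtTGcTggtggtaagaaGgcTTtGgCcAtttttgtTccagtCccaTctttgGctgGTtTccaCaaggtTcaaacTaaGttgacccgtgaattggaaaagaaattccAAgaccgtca
RPS7B chrXIV:443705-443824 (- strand): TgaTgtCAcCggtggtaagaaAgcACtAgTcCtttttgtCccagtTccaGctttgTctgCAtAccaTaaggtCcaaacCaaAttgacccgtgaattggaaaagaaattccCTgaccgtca
The copies of RPS6 differed at 0 of these 120 bases and those of RPS7 at 24. Over the same bases, with the TSS placed 50 nt before the start codon, the signal was listed at 0 RPM in RPS6A and RPS6B, and its mean was 3.48 RPM in RPS7A and 2.23 RPM in RPS7B. A base was counted as copied where at least 90% of the 50-base windows over it occurred elsewhere in the genome with at most 4 mismatches, and as copy-free where at most 10% did.

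The RPS genes showed the ordinary order of features around the TSS, with a shallower depletion than the other genes, a +1 peak of similar height and a deep trough further into the gene. In the median profile the depletion reached its lowest point at -68.2 nt of the TSS with 4.14 RPM in RPS genes, against -81.1 nt with 3.69 RPM in the other 2380 genes. The +1 peak stood at 42.8 nt and 9.94 RPM in RPS genes and at 27.4 nt and 9.02 RPM in the other genes. The +2 peak lay at 202 nt in RPS genes and 199.8 nt in the other genes. From about 500 nt on the profiles parted, and the RPS median fell to 0.686 RPM at 661 nt, where the other genes stayed above 5.2 RPM.

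**Figure D1:**
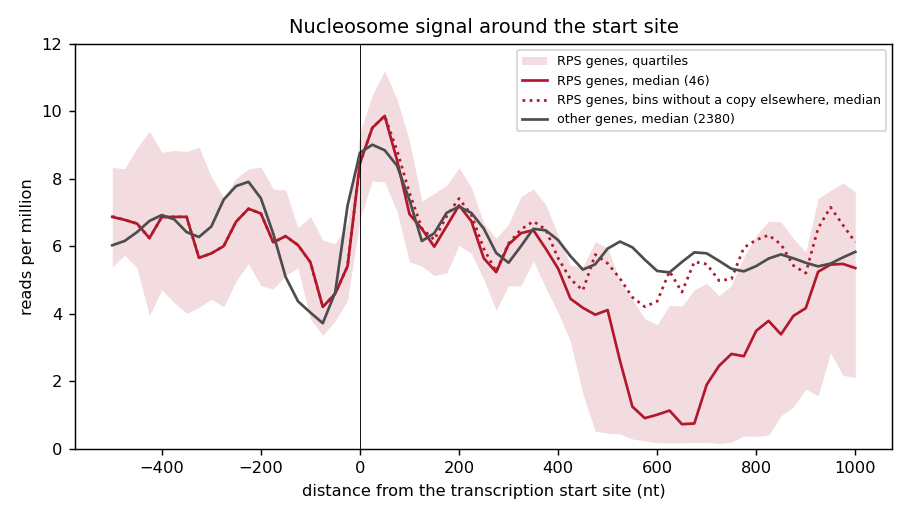
Median signal in RPM (vertical axis) against distance from the TSS in nt (horizontal axis) for 46 RPS genes (red, quartiles shaded) and 2380 other genes (grey); the dotted red line is the RPS median over copy-free bins only. The solid red line drops to 0.686 RPM at 661 nt, while the dotted line stays above 4 RPM.

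With the window read from 500 nt upstream, the 5′ depletion of the RPS genes was shallow and, by the median, somewhat narrow. Its width was taken as the stretch around the lowest bin from 300 nt upstream to 50 nt downstream that lay under 50% of the overall mean, that is under 3.13 RPM. The median width was 12.8 nt in RPS genes and 37.2 nt in the other genes. With the window read from 200 nt upstream the order turned, to 11.95 nt in RPS genes and 0 nt in the other genes, since the search region then covers other bins. In 19 of 46 RPS genes no bin of the search region lay under that limit, where the share over all genes was 26%. They included RPS2 (YGL123W), RPS4B (YHR203C), RPS6A, RPS6B, RPS9B (YBR189W), RPS14A (YCR031C), RPS19B (YNL302C), RPS23A (YGR118W), RPS23B (YPR132W), RPS24A (YER074W), RPS24B (YIL069C), RPS25B (YLR333C), RPS26B (YER131W), RPS27B (YHR021C), RPS29B (YDL061C), RPS30B (YOR182C) and RPS31 (YLR167W).

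Widths of at least 150 nt were found in 2 of 46 RPS genes, near the share over all genes of 4.37%. In both the stretch lay downstream of the TSS rather than over the promoter. Next came RPS16B (YDL083C), which encodes a head protein, with 141 nt from -180.4 nt to -39.2 nt. RPS3 (YNL178W), another head protein with an added role as a DNA endonuclease in vitro, had 101.3 nt, from -279.7 nt to -178.4 nt. RPS15 (YOL040C), needed for nuclear export of the pre-40S particle, had 86.3 nt, centred further upstream still.

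The mean signal over the depletion bins (the 4 bins that end 50 nt upstream of the TSS) gave the same order. The median was 5.19 RPM in RPS genes, with quartiles of 4.35 and 6.31 RPM, against 4.34 RPM in the other genes, with quartiles of 3.21 and 5.70 RPM. A mean under 3.13 RPM was found in 1 of 46 RPS genes, RPS16B at 2.72 RPM, while the share over all genes was 22.8%. Among the fullest depletion bins were those of RPS25A (YGR027C) at 7.59 RPM, RPS24B at 7.51 RPM and RPS16A (YMR143W) at 7.39 RPM. At the low end RPS16B was followed by RPS30A (YLR287C-A) at 3.38 RPM and RPS21B (YJL136C) at 3.50 RPM. With the TSS placed 50 nt before the start codon, no copied sequence lay in these bins in any of the 46 members. The difference of medians, 0.85 RPM, was 0.34 RPM in the 21 members with at least 99% unique windows. These are 50-base windows of the gene and its flanks whose exact sequence occurs once in the genome. Upstream of the depletion bins, the -1 nucleosome bins (the 4 that end 200 nt upstream) had a median of 6.61 RPM in RPS genes and 7.64 RPM in the other genes.

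The promoters were searched for short motifs on both strands in the 500 bases before the start codon. A match to the Rap1 motif ACCCANACA was found in 15 of 46 RPS genes (32.6%), where 3.92% of all 2425 annotated genes with a row held one. The Fhl1 motif GACGC was in 24 of 46 RPS genes (52.2%) and in 29% of all genes, the Abf1 motif (CGT and TGAT with 5 free bases between them) in 3 of 46 and in 4.29% of all genes, and a run of 7 A or T in 30 of 46 and in 66.8% of all genes. The 19 Rap1 matches lay 190 to 498 bases before the start codon. In 4 members there were 2 matches within 100 bases of each other, and 3 of these promoter stretches are shown with the matches in capitals, in sense orientation as ACCCANACA and in antisense orientation as its reverse complement (R64 assembly, sacCer3, read 5′ to 3′ along the gene).
RPS7A chrXV:505281-505344 (+ strand): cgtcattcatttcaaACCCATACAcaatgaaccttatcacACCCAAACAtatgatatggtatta
RPS16A chrXIII:551515-551644 (+ strand): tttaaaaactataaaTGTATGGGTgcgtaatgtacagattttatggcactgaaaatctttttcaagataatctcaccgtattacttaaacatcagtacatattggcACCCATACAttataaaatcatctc
RPS16B chrIV:308128-308229 (- strand): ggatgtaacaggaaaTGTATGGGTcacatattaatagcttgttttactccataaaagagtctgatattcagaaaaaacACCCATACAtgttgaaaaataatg
The RPS16 paralogs share an antisense match followed by a sense match, with the same letters at different spacing, and RPS7A carries 2 matches in the same direction. At the matches the signal differed from gene to gene. It was 6.83 and 4.66 RPM at the 2 matches of RPS16A and 2.37 and 5.71 RPM at those of RPS16B. The 15 members with a match had a median of 4.79 RPM over the depletion bins, against 5.31 RPM in the 31 members without one, and the corresponding +1 medians were 8.72 and 9.11 RPM. A match is only a description of the letters, and binding was not measured.

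The +1 nucleosome was of ordinary height in most RPS genes and was very high in 3. Over the bins from 0 to 75 nt, the median was 9.04 RPM in RPS genes, with quartiles of 7.73 and 10.04 RPM, and 8.77 RPM in the other genes. RPS19B, whose protein is needed for pre-40S maturation, had 34.8 RPM, rank 1 of all 2426 genes, with its peak of 43.1 RPM at 36.9 nt. RPS6A, whose protein is the phosphorylated Rps6 of the TORC1 pathway, had 17.9 RPM (rank 4), and RPS17B (YDR447C), a head protein, had 17.7 RPM (rank 5). Their paralogs were ordinary, with 9.61 RPM in RPS19A (YOL121C), 8.98 RPM in RPS6B and 9.29 RPM in RPS17A (YML024W). Well below them came genes such as RPS10A (YOR293W) at 10.8 RPM. Among the low values were RPS29A (YLR388W) at 6.31 RPM, RPS0A (YGR214W) at 6.38 RPM and RPS9A (YPL081W) at 6.87 RPM. For RPS29A the place of the TSS relative to the coding sequence is uncertain, as described below for some short genes. With the TSS placed 50 nt before the start codon, 30 of 46 members had no copied sequence in the +1 bins. More than 10% of the windows there were copied in 10 members, among them RPS29A and RPS0A.

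**Figure D2:**
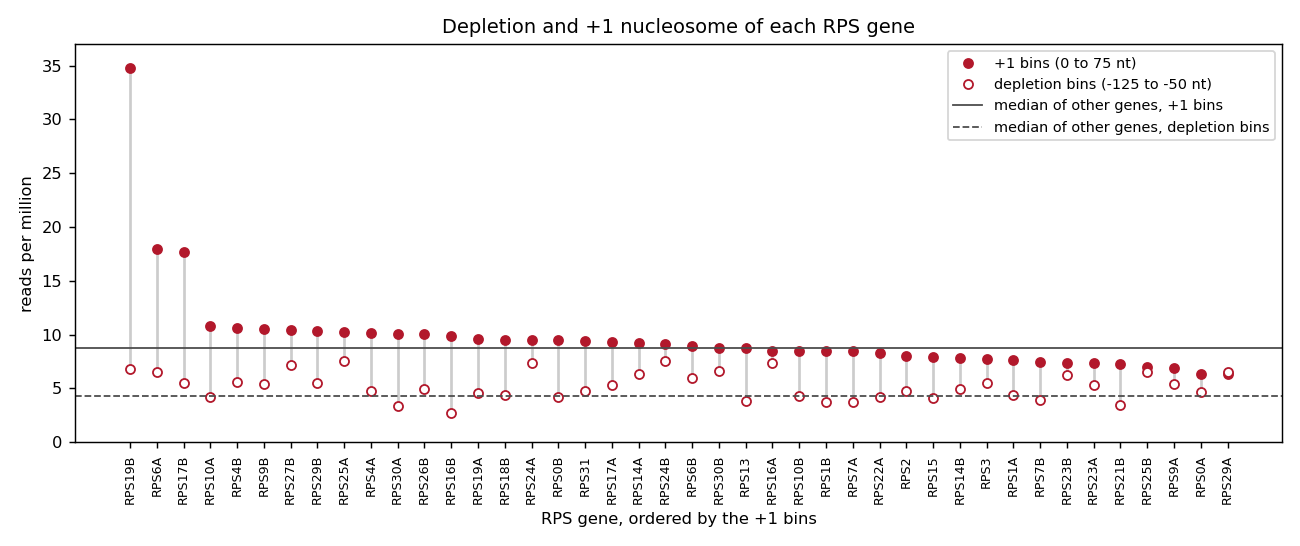
Mean signal in RPM (vertical axis) over the +1 bins (filled circles) and the depletion bins (open circles) of 42 of the 46 RPS genes, ordered by the +1 bins, with the medians of 2380 other genes as horizontal lines. RPS19B stands at 34.8 RPM, RPS6A at 17.9 RPM and RPS17B at 17.7 RPM, and the lowest filled point shown is RPS29A at 6.31 RPM.

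The contrast between both features was modest. The +1 bins exceeded the depletion bins at least 2-fold in 16 of 46 RPS genes (34.8%), while the share over all genes was 50%. The highest ratios were 5.11 in RPS19B, 3.63 in RPS16B, 3.19 in RPS17B and 2.98 in RPS30A. They came about differently, since RPS16B and RPS30A combined ordinary +1 bins of 9.86 and 10.05 RPM with the lowest depletion bins, and RPS19B and RPS17B combined high +1 bins with depletion bins of 6.80 and 5.55 RPM.

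A second measure of the +1 nucleosome, the first local maximum downstream of the lowest bin, had a median position of -48.6 nt in RPS genes and -1.41 nt in the other genes. It often stopped at a small bump inside the promoter, as in RPS16B (2.94 RPM at -116 nt) and RPS30A (3.08 RPM at -97.1 nt). Its median height was 8.53 RPM in RPS genes and 9.19 RPM in the other genes. The highest value from 50 nt upstream to 150 nt downstream, a definition chosen after seeing the data, gave 43.4 nt and 10.9 RPM in RPS genes and 31.4 nt and 10.3 RPM in the other genes, so the direction of both differences depended on the definition. The 3 highest members, RPS19B, RPS6A (24.9 RPM) and RPS17B (19.8 RPM), were the same as in the fixed bins.

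The gene body of the RPS genes was low. Over the bins from 100 nt to the end of the coding span, the median signal was 4.14 RPM in RPS genes, with quartiles of 3.45 and 4.91 RPM, and 6.02 RPM in the other genes. A body under 0.75 of the median over all genes, that is under 4.49 RPM, was found in 27 of 46 RPS genes, where the share over all genes was 10.8%. Among the lowest bodies were 1.40 RPM in RPS1B (YML063W) and 1.45 RPM in its paralog RPS1A (YLR441C). They were followed by RPS4A (YJR145C) at 1.74 RPM and RPS4B at 1.89 RPM. In 38 of 46 RPS genes at least 1 bin from 100 to 1000 nt lay under 0.5 RPM, against 6.43% of the other genes. The 8 that had none were RPS2, RPS3, RPS13 (YDR064W), RPS15, RPS21B, RPS27B, RPS29A and RPS29B.

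In most members the low signal lay over copied sequence. In 32 members with at least 3 bins of each kind in the body, the copied bins had a median of 0.390 RPM and the copy-free bins of the same genes 6.29 RPM. The copied bins were the lower ones in 32 of 32 genes. The highest copied value, 1.75 RPM in RPS7B, lay below the lowest copy-free value, 2.82 RPM over 3 bins in RPS1B. Members with fewer than 3 copy-free bins could not be compared in this way. In 3 of them the bins counted as copied were full, with 7.17 RPM in RPS25A, 6.94 RPM in RPS25B and 7.02 RPM in RPS26B. That count rests on the TSS placed 50 nt before the start codon, which is doubtful for these genes, as described below. RPS6A showed the contrast within 1 gene, with 0.0904 RPM over its copied bins and 7.68 RPM over its copy-free bins, which include its intron. The placement of the TSS relative to the start codon was not given in the tables. With 0, 25 or 75 nt in place of 50 nt the copied bins were lower in 30 of 30, 30 of 30 and 32 of 32 members, and with 100 nt in 28 of 30. The same held in 56 of 60 other genes with both kinds of bins, at 0.603 RPM in the copied and 5.64 RPM in the copy-free bins.

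**Figure D3:**
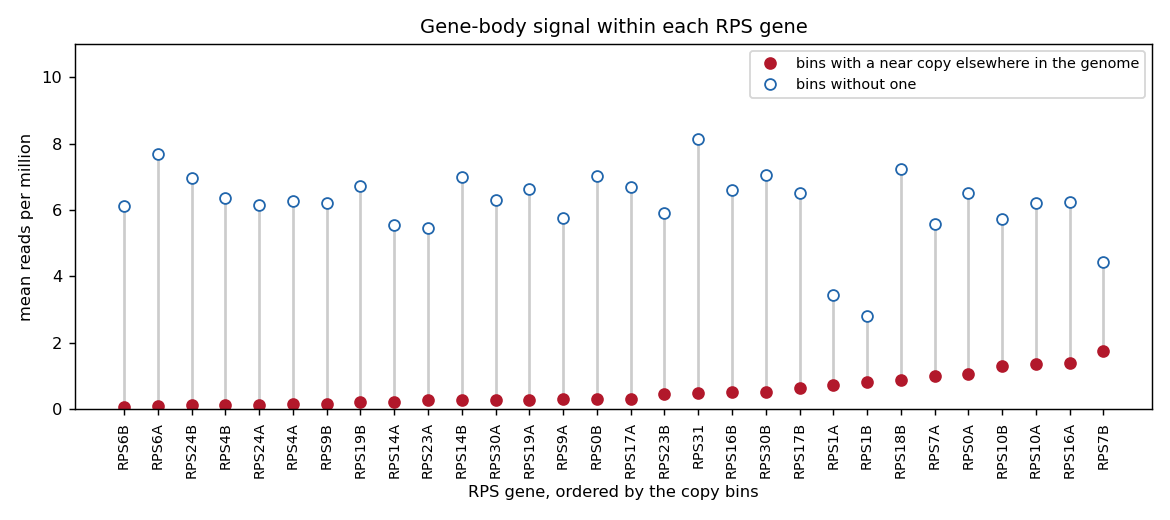
Mean gene-body signal in RPM (vertical axis) over bins with a near copy elsewhere in the genome (filled red) and bins without one (open blue) in 30 of the 32 RPS genes, ordered by the copied bins. All 30 filled points lie at or below 1.75 RPM and all 30 open points at or above 2.82 RPM.

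Over copy-free bins alone the body had a median of 6.21 RPM in 39 RPS genes and 6.09 RPM in 2346 other genes. It was 6.27 RPM in the 32 RPS genes with an intron and 4.65 RPM in 7 without one. The copy-free bins were not matched by position between RPS genes and other genes. At 550 nt the copy-free median was 4.49 RPM in RPS genes and 6.04 RPM in the other genes. At 950 nt it was 7.16 RPM in RPS genes and 5.52 RPM in the other genes. The span from start to stop codon had a median of 801 nt in RPS genes and 1467 nt in the other genes. If the TSS stands close to the start codon, 950 nt lay beyond the coding span in many RPS genes. The values at 950 nt are therefore not a comparison of gene bodies. In the 21 members with at least 99% unique windows the whole body still differed from that of the other genes, by -1.13 RPM. That measure counts exact matches only, so these members are not free of copied sequence. RPS26B, for example, had 100% unique windows but 16.7% copy-free windows. Of the 39 members with a copy-free value, 4 lay under 0.75 of its median over all genes, against 8.22% of all genes. These were RPS1A at 3.45 RPM, RPS1B at 2.82 RPM, RPS7B at 4.44 RPM and RPS22A (YJL190C) at 4.41 RPM. The values rest on 3 copy-free bins each in RPS1A and RPS1B, 23 in RPS7B and 5 in RPS22A. The fullest was RPS31 at 8.14 RPM. How reads that fit several places were treated in making the tables was not given in the sources used here, so its part in the low values was not tested.

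The share of a gene that was copy-free ran alongside its body signal over the members. Copy-free windows made up 30.5% of RPS1A and RPS1B, 26.5% of RPS4A and 27.4% of RPS4B, and 100% of RPS2, RPS3, RPS13 and RPS15. These 4 genes, which have no paralog, had bodies of 4.91, 5.62, 5.42 and 4.65 RPM, all of them above the limit of 4.49 RPM and below the median of the other genes. RPS31 has no paralog either, but it encodes ubiquitin fused to the ribosomal protein, and the ubiquitin part recurs in other genes. It had 0.472 RPM over its copied bins and 63.2% copy-free windows, and its lowest bin, 0.210 RPM, lay at 175 nt, near the start where the ubiquitin part is encoded.

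**Figure D4:**
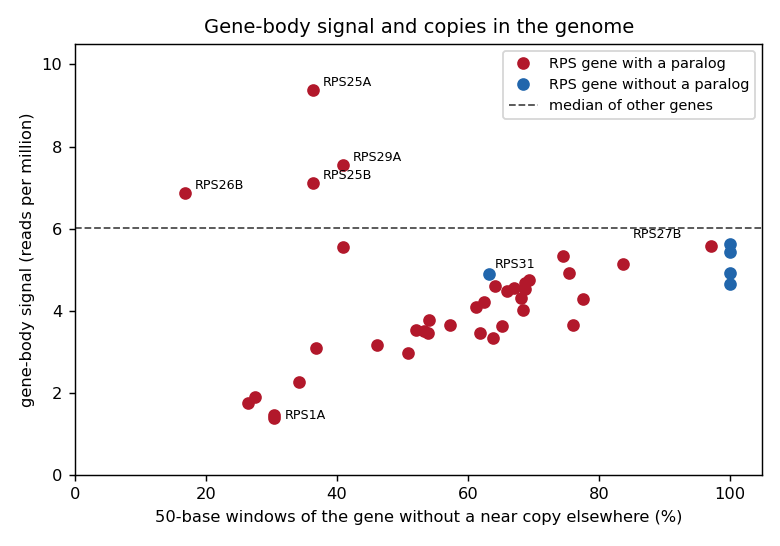
Gene-body signal in RPM (vertical axis) against the percentage of 50-base windows of the gene without a near copy elsewhere (horizontal axis) for 37 RPS genes with a paralog (red) and 5 without (blue); the dashed line is the median of the other genes at 6.02 RPM. The points of RPS1A and RPS1B, at 1.45 and 1.40 RPM, are the lowest shown, and RPS25A, RPS25B, RPS26B and RPS29A lie above the dashed line.

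A few short genes stood apart from that order. RPS25A had the highest body of the members, 9.37 RPM, followed by RPS29A at 7.56 RPM and RPS25B at 7.11 RPM, and RPS26B had 6.87 RPM, although only 16.7% to 40.98% of their windows were copy-free. Their lowest bins lay further out, at 450 nt in RPS25A (0.160 RPM), at 575 nt in RPS25B (0.360 RPM) and at 550 nt in RPS26B (0.150 RPM). These genes span 171 to 360 nt from start to stop codon, so those bins lay beyond the coding span if the TSS stands close to the start codon. For short genes the windows of both tables overlap, and the TSS to TES distance that aligned them best was taken. It exceeded the coding span by a median of 150 nt in the 15 RPS genes with a match, and by 440 nt in RPS25A, 530 nt in RPS26B and 580 nt in RPS29B. For RPS25B and RPS29A no distance matched within 10%. The +1 and body values of these 5 genes may therefore describe DNA upstream of the coding sequence. Their depletion values may likewise describe DNA further upstream than in the other members.

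The copies of a pair were often unlike each other around the TSS. The correlation of the 2 copies over 17 bins from 300 nt upstream to 100 nt downstream had a median of 0.35 over the 18 pairs, and ran from -0.34, in RPS29, to 0.87. These bins are neighbours in 1 library, so the values are a description. In the RPS29 pair and the RPS25 pair (-0.31) the place of the TSS is uncertain, as described above, so the bins of their copies may not be aligned. The width of the depletion differed most in the RPS16 pair (22.4 nt in RPS16A and 141 nt in RPS16B), by 61.7 nt in the RPS9 pair (61.7 nt in RPS9A and 0 nt in RPS9B) and by 53.96 nt in the RPS30 pair (53.96 nt in RPS30A and 0 nt in RPS30B). It was 0 nt in both copies of RPS6, RPS23 and RPS24. The RPS16 pair also differed over the depletion bins, with 7.39 RPM in RPS16A and 2.72 RPM in RPS16B, while their +1 bins were close at 8.51 and 9.86 RPM. Over copy-free body bins the pairs differed by a median of 0.492 RPM.

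Medians by role in the subunit lay close together on the 5′ side. The 16 genes for head proteins had a median of 5.42 RPM over the depletion bins and 9.47 RPM over the +1 bins, and the 30 genes for body and platform proteins 5.01 and 8.74 RPM. Head genes named elsewhere here include RPS10A, RPS10B (YMR230W) and RPS18B (YML026C), with depletion bins of 4.18, 4.35 and 4.39 RPM. Among platform and body genes, RPS0A and RPS0B (YLR048W) had 4.68 and 4.22 RPM and RPS14B (YJL191W), whose product binds its own pre-mRNA, 4.91 RPM. The body signal was 4.63 RPM in the head genes and 3.64 RPM in the others, and over copy-free bins 6.56 and 6.12 RPM. The 32 genes with an intron had a median width of 7.55 nt and +1 bins of 9.37 RPM, and the 14 without one 31.8 nt and 7.97 RPM. These 14 include RPS25A, RPS25B, RPS26B, RPS29A and RPS29B, whose TSS placement is uncertain. They also include the 2 members with a width of at least 150 nt. The 15 genes with a tandem upstream neighbour had a median width of 0 nt and the 31 with a divergent one 13.6 nt.

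At the 3′ end the RPS genes were low before the TES and high just after it. The median over the bins from 140 to 70 nt upstream was 5.42 RPM in RPS genes and 7.48 RPM in the other genes, and over the bins from 30 nt upstream to 80 nt downstream 6.99 RPM and 6.01 RPM. The ratio of the first to the second had a median of 0.774 in RPS genes and 1.16 in the other genes. It was above 1 in 12 of 46 RPS genes (26.1%), where the share over all genes was 61.5%. In the median profile the RPS genes had a peak of 8.10 RPM at 31.9 nt downstream of the TES, where the other genes approached their minimum of 5.72 RPM at 61.8 nt.

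**Figure D5:**
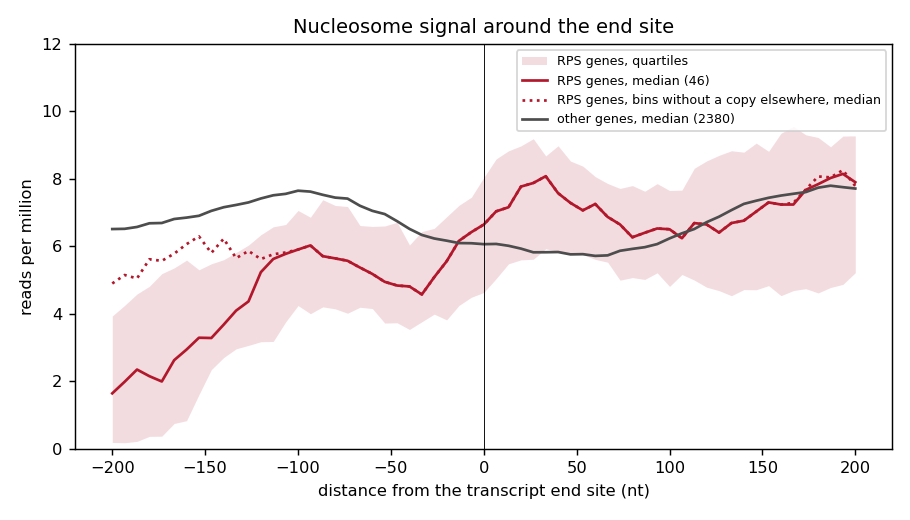
Median signal in RPM (vertical axis) against distance from the TES in nt (horizontal axis) for 46 RPS genes (red, quartiles shaded; dotted, copy-free bins only) and 2380 other genes (grey). RPS genes peak at 8.10 RPM 31.9 nt after the TES, near which the other genes are lowest. Their low signal at 200 nt upstream (1.64 RPM) is 4.90 RPM over copy-free bins, which only 10 RPS genes have there. The copy-free median of the other genes at that point is 6.60 RPM.

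Copied sequence lay on 1 side of that ratio. Of the upstream bins, more than 10% of the windows were copied in 34 of 46 members, with the TES placed 100 nt after the stop codon. None was copied in the bins from 30 nt upstream to 80 nt downstream of the TES in any of the 46. With copy-free bins only, the ratio was 0.856 in RPS genes and 1.16 in the other genes. These upstream bins were not matched by position. At 106.7 nt upstream 18 of 46 RPS genes had a copy-free value and at 100 nt upstream all 46, against 2320 and 2367 other genes. The lowest ratios were 0.0481 in RPS19A (0.241 RPM before and 5.01 RPM around the TES), 0.256 in RPS4A and 0.335 in RPS16B. The highest were 1.97 in RPS17A, 1.78 in RPS2 and 1.51 in RPS26B. RPS17A was unusual in that its bins around the TES were nearly empty, with 0.909 RPM, rank 15 from the bottom of 2426 genes.

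Other gene lists put these values in context. The 65 large-subunit ribosomal protein genes had nearly the same medians as the RPS genes, with a body of 4.29 RPM, a copy-free body of 6.22 RPM and a TES ratio of 0.772, and 36 of 65 had a body under 4.49 RPM. Their depletion bins, at 4.87 RPM, lay between those of the RPS genes and of the other genes. The 11 glycolytic genes with a row, also highly transcribed, had a median body of 3.98 RPM and of 4.42 RPM over copy-free bins, and 5 of 10 lay under the limit for copy-free bins, 4.57 RPM. Of the other genes with less than 80% copy-free windows, 79.2% had a body under 4.49 RPM. The 5 regulators of ribosomal protein genes with a row had a body of 5.50 RPM and 0 of 5 were under the limit.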

How the data were processed

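One MNase-Seq library of total histones from wild type cells grown to an OD600 of 0.8 was used. The authors sequenced it on the SOLiD platform, mapped reads to sacCer3 with bfast and made profile tables with ngs.plot, per the methods. The authors deposited coverage (signal in RPM) by gene and position. The outer 20 value columns at either end only duplicate the edge and were dropped, leaving 61. Multi-mapping rules, read length and pooling were not given in the sources used here. No per-sample column was left unmapped. No test was run, since 1 library gives no replicate error.

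Gene positions, neighbours and sequences came from the RefSeq annotation of R64, in which 2425 of 2426 genes were found by systematic name. Copies were sought with blastn 2.17.0 for each gene and 600 nt on each side, and 50-base windows with at most 4 mismatches elsewhere were marked. Ratios whose divisor lay under 0.03 RPM were left out (2422 genes for the +1 ratio, 2423 for the TES ratio). Scripts used Python with numpy and pandas, and the measures were tested on simulated data. Named in full were the 5 widest and 5 narrowest depletions, the 3 highest and lowest +1 heights, bodies and TES ratios, and the 3 most and least different pairs (more where tied); a few members are not reported here. Members and lists were chosen with earlier results of these data known.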

Additional observations from a re-analysis of the deposited data

How the results depend on the processing

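The alternatives came to 77 values, of which 46 moved by no more than 25 nt, 0.5 RPM, 0.2 in a ratio or 1.5 times in a share, 20 moved further and 11 changed sign. Values are differences of medians, RPS genes minus other genes, or shares of RPS genes. The share with a width of at least 150 nt (4.35%) was 2.17% with the threshold at 50% of the gene's own mean, 21.7% midway between the gene's own minimum and +1 peak, 6.67% with a tandem neighbour only, and 0% with a window starting 200 nt upstream and among the 21 members with at least 99% unique 50-mers. The width (-24.4 nt) became 11.95 nt with the 200 nt window. The depletion signal (0.85 RPM) was 0.34 RPM in the unique members and 1.66 RPM after dividing each gene by its own mean. The +1 position (-47.1 nt) was -18.8 nt for means, -80.9 nt in the unique members, 9.86 nt for tandem members, 16.8 nt with the 200 nt window and 11.99 nt for the highest value. The +1 height (-0.65 RPM) was 0.64 RPM for means, 0.36 RPM in the unique members, 0.46 RPM for tandem members, 0.28 RPM in fixed bins, 0.71 RPM after own-mean scaling and 0.63 RPM for the highest value. The body (-1.88 RPM) was -1.13 RPM in the unique members, -2.38 RPM for tandem members, -0.61 RPM from 200 to 500 nt, -1.18 RPM after own-mean scaling and 0.13 RPM in copy-free bins, and the share of low bodies (58.7%) was 23.8%, 26.1%, 34.8% and 10.3% for the unique members, 200 to 500 nt, own-mean scaling and copy-free bins. The TES ratio (-0.39) was -0.73 for means and -1.40 for own extremes, whose share above 1 was 91.3% against 26.1%. Copy-free bins, the search from -200 to 0 nt at 75% and the highest value were chosen after seeing the data. The cause of these shifts was not tested.

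No paired analysis was possible because only 1 library was used. A single library, about 208 reads over a base, and an unstated TSS annotation limit all values: differences over genes carry no replicate error, positions are resolved to 25 nt at best, and the 50 nt and 100 nt offsets used to place copied sequence are assumptions.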

Other observations

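The RPS genes lay in wider intergenic space than the other genes, with a median of 660.5 nt to the upstream neighbour's annotated end, against 453 nt. Their median lowest bin from 100 to 1000 nt was 0.0886 RPM, against 3.15 RPM in the other genes. With the minimum sought from 200 nt upstream to the TSS and the threshold at 75% of the overall mean, the depletion was 57.6 nt wide in RPS genes and 85.3 nt wide in the other genes. RPS2 had 199 nt and RPS16B 179 nt by that measure.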
